A study of Mus musculus with 7 samples.

Results

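The 10 genes described here encode the enzymes that make prostaglandins and thromboxane from arachidonic acid, and those that break prostaglandins down. They were chosen by name: Ptgs1, Ptgs2, Ptges, Ptges2, Ptgds, Hpgds, Ptgis, Tbxas1, Hpgd and Ptgr1, out of 23288 genes measured in mouse brain. All 10 were measured, 7 of them by 1 probe and 3 by 2 probes, and the brightest probe of each was well above background on all 7 arrays. Each value below is the log2 of that probe's processed signal minus the 75th percentile of its array, so that 0 marks a signal at the 75th percentile. No probe's level is set against another probe's, since probes differ in brightness for the same amount of RNA.

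The groups were 3 brain samples of Pla2g2e -/- mice (KO) on day 3 after a 60 min transient occlusion of the middle cerebral artery (MCAO), 3 wild type (WT) samples at the same time after the same operation, and 1 WT sample titled as sham. MCAO models ischemic stroke by closing the main artery to one side of the forebrain and then letting blood return. All were male, on the C57BL/6N background. Pla2g2e encodes a secreted phospholipase A2, one of the enzymes that cut fatty acids out of phospholipids. The labels give neither the age of the mice nor the part of the brain taken. Separate animals are not stated for the replicates, so every p-value reflects spread among samples that could be technical repeats. The question that the design poses is whether loss of Pla2g2e changes gene expression in the brain after stroke.

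Prostanoid synthesis starts when a phospholipase frees arachidonic acid and a cyclooxygenase, Ptgs1 or Ptgs2, turns it into the unstable intermediate prostaglandin H2. Terminal synthases then make prostaglandin E2 (Ptges, Ptges2), prostaglandin D2 (Ptgds, Hpgds), prostacyclin (Ptgis) or thromboxane A2 (Tbxas1), and Hpgd and Ptgr1 inactivate prostaglandins in successive steps. In brain, Ptgs2 is known as the cyclooxygenase that neurons, vessels and inflammatory cells induce, Ptgs1, Hpgds and Tbxas1 as enzymes of microglia and macrophages, and Ptgds as an abundant product of oligodendrocytes and leptomeningeal cells.

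Between 31177 and 34029 of the 43020 non-control spots of an array were well above background, and none was saturated. All KO arrays shared a slide and all WT arrays, sham included, shared another, so genotype and slide cannot be told apart. The brighter probe of the deleted gene did not separate the groups: Pla2g2e stood at -4.44, -5.83 and -4.97 on the KO arrays, at -6.89, -3.68 and -3.36 on the WT arrays, and at -4.69 on the sham array. Its lowest value was on an array labelled WT, and the labels do not say whether its probes lie in the deleted part. In many other genes the array labelled WT day 3 replicate 1 stood apart, being lowest of the 7 arrays for 34.4% of all genes and highest for 43.9%. The differences below are therefore given with and without it. Without it, Pla2g2e differed between KO and WT by -1.55 ± 0.44 (SE; limma fit of all probes, unadjusted p = 0.017, adjusted p = 1). A second Pla2g2e probe, at base 489 of the mRNA, stood at -7.94, -8.44 and -7.84 on the KO arrays, at -9.0, -6.72 and -6.50 on the WT arrays, and at -6.83 on the sham array. It was well above background on WT replicates 2 and 3 and sham, and on none of the KO arrays. For a bound, each KO array was set no lower than its lowest signal well above background. The KO mean of this probe was then at least 1.71-fold below the mean of WT replicates 2 and 3, and at least 1.47-fold below sham. This bound allows for dim KO signals only, not for spread among samples. Against all 3 WT arrays the same bound was 0.98-fold, which gives no decrease. With WT replicate 1 left out, limma gave this probe an unadjusted p of 0.00185 (adjusted p = 1) for KO against WT. KO minus sham was then -1.25 on this probe and -0.39 on the brighter one. For the probe at base 489 these fits use measured KO signals that were not well above background.

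Cell type markers separated that array as well. The summed signal of 9 phagocyte and monocyte markers, with the array's 75th percentile set to 1, was 133 to 192 on the KO arrays, 2.24, 187 and 187 on the WT arrays, and 159 on the sham array, and all 9 were lowest on the array labelled WT day 3 replicate 1. For this sum the sham array thus lay within the range of the KO arrays. These phagocyte levels go against the titles of both arrays. Other lists differed. The 8 neutrophil markers summed to 4.64 on sham, 13.5 to 30.7 on the KO arrays, and 0.496, 31.6 and 23.2 on the WT arrays. For 5 red blood cell markers the sums were 0.343 on sham, 1.81 to 7.33 on KO, and 0.401, 2.17 and 2 on WT. The 8 homeostatic microglia markers gave 111 on sham, within the KO range of 102 to 115. Whether the titles are right cannot be told from the labels. The titles were kept, and each value given for WT or for sham holds only as far as they do. All 8 neuron markers were instead highest on the array labelled WT day 3 replicate 1, with a summed signal of 18.8, 47.4 and 12.5 on the KO arrays, 153, 30.5 and 31.1 on the WT arrays, and 44.3 on the sham array. In whole tissue, fewer cells of a type and less RNA per cell cannot be told apart.

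**Figure D1:**
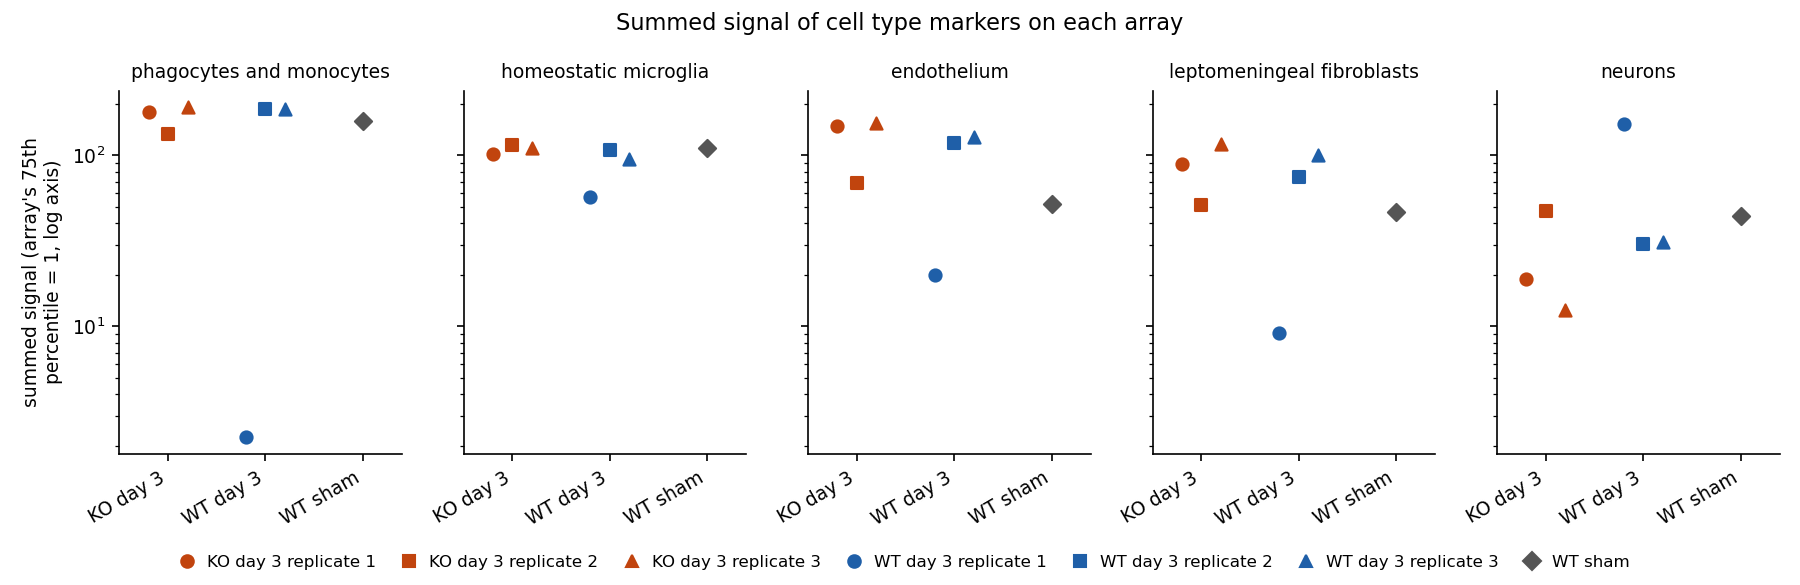
Summed signal of cell type marker genes on each array, with the 75th percentile of the array set to 1 (log axis), for KO day 3 (orange), WT day 3 (blue) and WT sham (grey). The array labelled WT day 3 replicate 1 (blue circle) is at 2.24 for phagocytes and monocytes and at 153 for neurons, and the sham array is close to KO replicate 2 for endothelium and fibroblasts.

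None of the 10 genes passed limma's test in any comparison, with Benjamini-Hochberg adjustment over all 23288 genes. The smallest adjusted p in limma among the 10 was 0.862 for KO against WT and 1.0 for either day 3 group against sham. Over all genes, limma called 0 of 23288 (0%) for KO against WT, 3 (0.0129%) for KO against sham and 3 (0.0129%) for WT against sham. At an unadjusted p under 0.05 limma gave 196 genes (0.842%) for KO against WT, 304 (1.31%) for KO against sham and 261 (1.12%) for WT against sham, and none of the 10 was among them. Without the array labelled WT day 3 replicate 1, limma called 0 genes (0%) for KO against WT, 8 (0.0344%) for KO against sham and 6 (0.0258%) for WT against sham. At an unadjusted p under 0.05 the shares were then 1.63%, 4.91% and 4.51%, again with none of the 10. No member had its 3 KO values all above or all below its 3 WT values, where 1.88% and 2.65% of all genes did. Nor did any when WT replicates 2 and 3 alone stood for WT, where 6.31% and 5.33% of all genes did. The description that follows is thus of levels on single arrays and of intervals, with no called change.

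**Figure D2:**
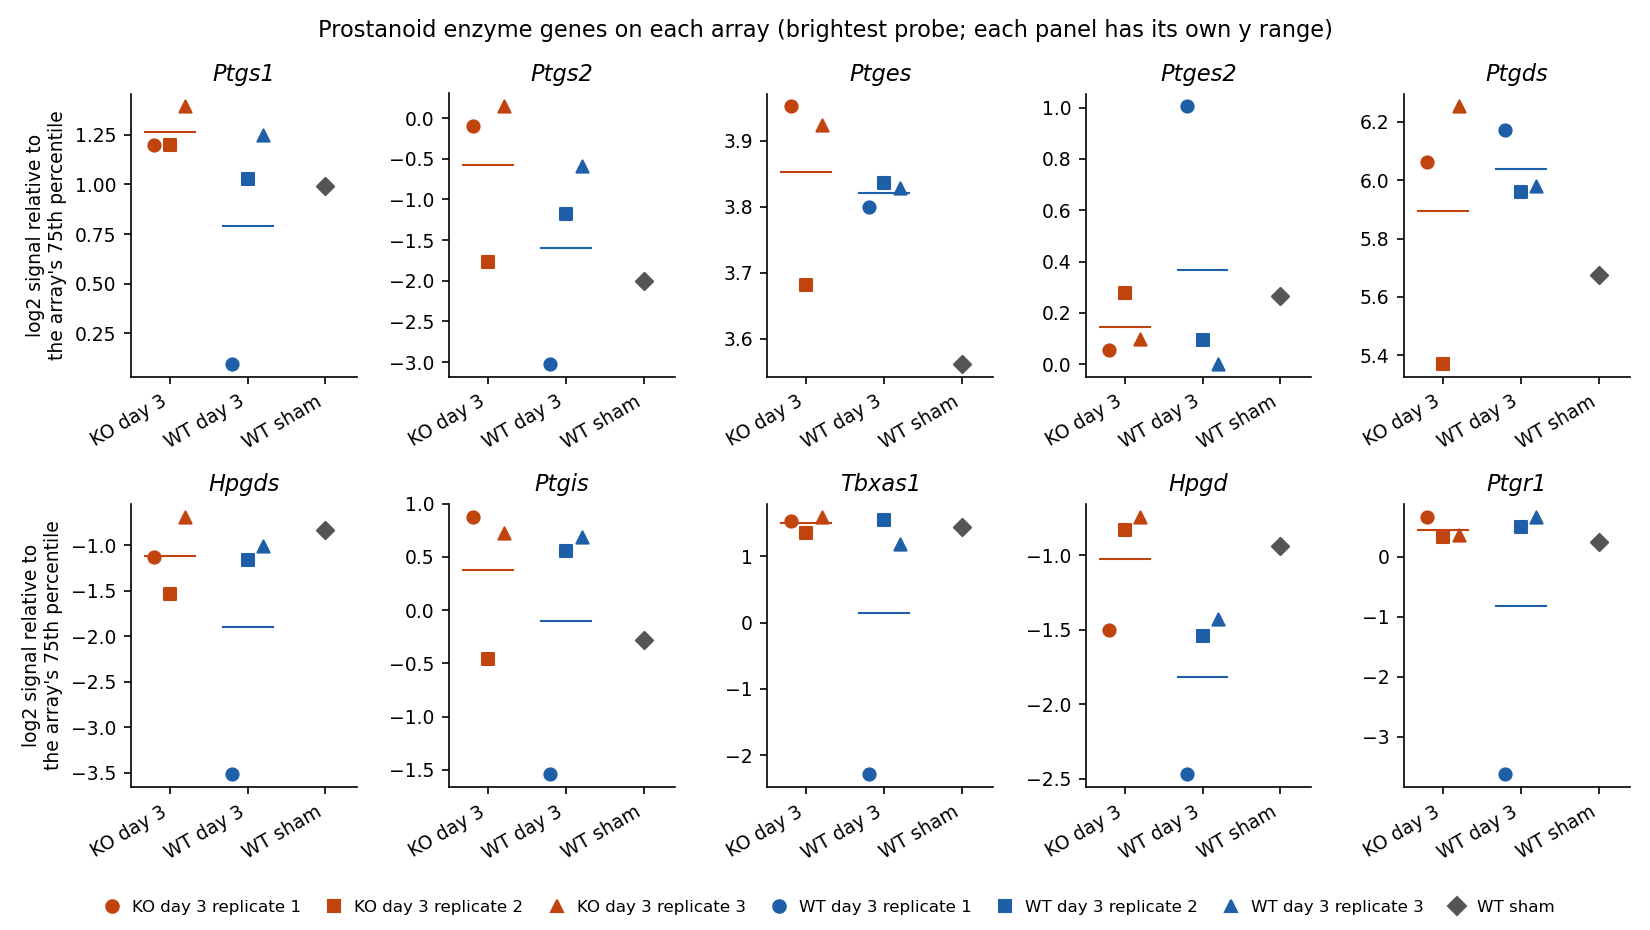
Level of each of the 10 genes on each of the 7 arrays (log2 signal relative to the array's 75th percentile; each panel has its own range), for KO day 3, WT day 3 and WT sham. Bars mark the group mean, and the blue circle, the array labelled WT day 3 replicate 1, is the lowest point in 7 of the 10 panels.

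Ptgs2, the inducible cyclooxygenase, spread most among the 10 genes once the array labelled WT day 3 replicate 1 was left out. It stood at -0.10, -1.77 and 0.14 on the KO arrays, at -3.03, -1.18 and -0.59 on the WT arrays, and at -2.00 on the sham array. KO replicates 1 and 3 were the highest of the 7 arrays, KO replicate 2 was below WT replicates 2 and 3, and the groups overlapped. The group means were -0.57 ± 1.04 in KO samples and -1.60 ± 1.27 in WT samples (SD, n = 3 each). The difference was 1.03 with a standard error (SE) of 0.81 and a 95% interval of -0.98 to 3.04 (limma, adjusted p = 0.862). Without the array labelled WT day 3 replicate 1 it was 0.31, with an interval of -1.38 to 2.00. Over the 6 arrays other than that one its standard deviation was 0.88, larger than that of 93.5% of all genes. Genes that neurons switch on with activity, as they do Ptgs2, summed over 10 markers to 14.6, 7.49 and 11.3 on the KO arrays, 39, 9.53 and 9.88 on the WT arrays, and 7.26 on the sham array. Their sum was thus highest where Ptgs2 was lowest, though of the 10 markers 6 were highest on that array and 3 lowest. Among the other arrays the sum was lowest on sham and KO replicate 2 and highest on KO replicates 1 and 3, as Ptgs2 was. Egr1, Junb, Nr4a1 and Ier2 singly kept that grouping, and the rest of the markers did not. Arc was lowest of the 7 arrays on KO replicate 3 (-0.49), where Ptgs2 was highest. Npas4 stood at -1.66 on KO replicate 1, below KO replicate 2 (-1.46) and sham (-1.27). The part of these genes in the Ptgs2 values was not tested.

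The Ptgs2 values rest on 1 probe with 10 spots on each array, of which 7 to 10 carried no outlier flag and were used. The standard deviation of these spots within an array was between 0.0271 and 0.0582, against a range of 3.17 between the arrays. The spots of KO replicates 1 and 3 ran between -0.17 and 0.17 and those of the array labelled WT day 3 replicate 1 between -3.15 and -2.95. The arrays thus differed by far more than the spots, and the 3 KO arrays spanned 1.91 and the 3 WT arrays 2.43, both more than the difference of the group means. The probe, 60 bases long, lies on the plus strand at chr1:151954744-151954803 of mm9, from base 3746 of the mRNA.

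**Figure D3:**
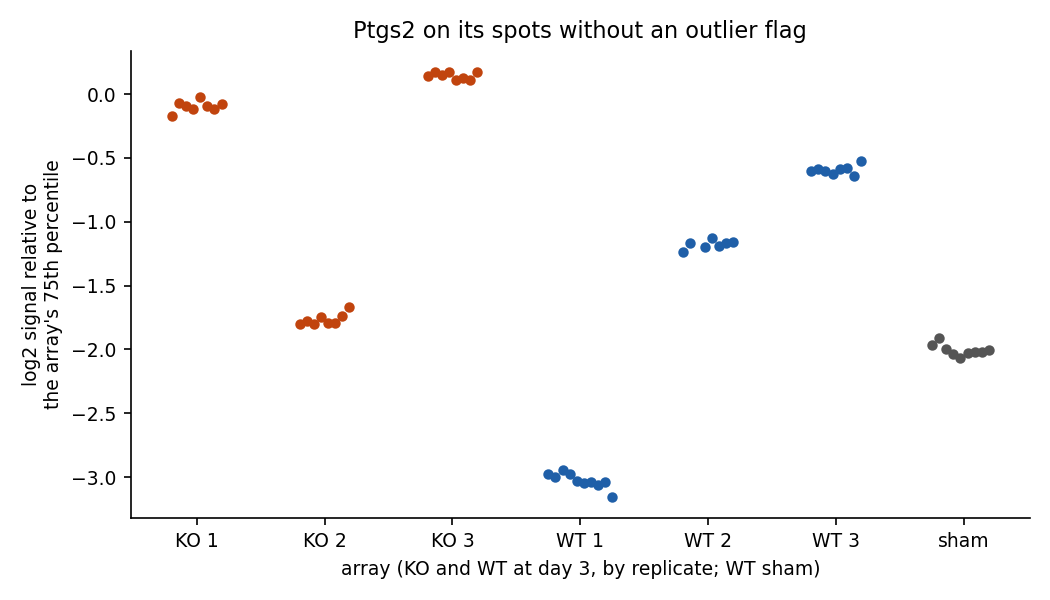
Ptgs2 signal on each of its 7 to 10 spots without an outlier flag (points) on every array, as log2 relative to the array's 75th percentile, with KO day 3 in orange, WT day 3 in blue and WT sham in grey. Spots of an array lie close together, while the WT arrays lie up to 2.43 apart.

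The promoter of Ptgs2 is shown because it is the most variable gene of the 10 over those 6 arrays, and that of Ptges, with which it is known to be induced in inflamed tissue, is shown for comparison. Both are RefSeq sequences on GRCm38.p6, from 250 bases before the annotated start to 30 bases after it, the first at chr1:150099781-150100060 on the plus strand and the second at chr2:30903268-30903547 on the minus strand. Capitals mark exact matches, on either strand, to 5 short motifs: TTGCGCAA (a C/EBP-type palindrome), CACGTG (an E-box), CGTCA (a core of the cyclic AMP response element), GGGCGG (an Sp1 box) and TATAAA.
Ptgs2: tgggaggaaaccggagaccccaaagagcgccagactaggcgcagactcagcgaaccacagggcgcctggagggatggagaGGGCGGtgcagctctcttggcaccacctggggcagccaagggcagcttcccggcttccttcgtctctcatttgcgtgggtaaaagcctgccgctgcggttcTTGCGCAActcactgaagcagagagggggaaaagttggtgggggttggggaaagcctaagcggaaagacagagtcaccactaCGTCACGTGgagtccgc
Ptges: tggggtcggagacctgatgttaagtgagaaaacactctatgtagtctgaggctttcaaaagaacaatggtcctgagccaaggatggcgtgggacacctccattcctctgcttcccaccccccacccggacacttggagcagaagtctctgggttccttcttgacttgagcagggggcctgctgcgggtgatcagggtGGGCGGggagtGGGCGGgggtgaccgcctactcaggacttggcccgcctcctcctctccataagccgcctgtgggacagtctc
Counting the annotated start as 0, the first bases of the Ptgs2 matches were at -170 for GGGCGG, -69 for TTGCGCAA, 13 for CGTCA and 16 for CACGTG, of which the last 2 overlap.

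Among 32851 RefSeq promoters of 300 bases, 0.183% held TTGCGCAA, 7.15% CACGTG, 20.8% CGTCA, 35.7% GGGCGG and 13.6% TATAAA. Promoters were listed for 9 of the 10 genes, and Ptgs2 was the one among them with TTGCGCAA and with CGTCA. The motif CACGTG was also in Ptges2. The Sp1 box was found in Ptgs2, Ptges, Hpgd and Ptgr1, and the TATAAA motif in Tbxas1 and Hpgd. These matches describe letters in the window and say nothing of what bound there.

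Ptgs1, the cyclooxygenase that many cells make at rest, varied little apart from 1 array. It stood at 1.20, 1.20 and 1.39 on the KO arrays, at 0.10, 1.03 and 1.25 on the WT arrays, and at 0.99 on the sham array. Lowest was the array labelled WT day 3 replicate 1, and WT replicate 3 lay among the KO values. Ptgs1 averaged 1.26 ± 0.11 in KO samples and 0.79 ± 0.61 in WT samples (SD, n = 3 each), and the difference of 0.47 had an interval of -0.37 to 1.32 (limma, adjusted p = 0.862). Without that array the difference was 0.12, with an interval of -0.26 to 0.51. Its probe lies at chr2:36107644-36107703 of mm9 on the plus strand.

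Ptges, the membrane-bound prostaglandin E synthase that partners Ptgs2, was read by 2 probes. They differed in how far they moved and on the array labelled WT day 3 replicate 1. The brighter probe, which starts at base 3583 of the mRNA, stood at 3.95, 3.68 and 3.92 on the KO arrays, at 3.80, 3.84 and 3.83 on the WT arrays, and at 3.56 on the sham array. The dimmer probe, which starts at base 364, stood at -1.20, -2.25 and -0.78 on the KO arrays, at -4.87, -1.46 and -1.34 on the WT arrays, and at -2.75 on the sham array. The brighter probe was almost level, with a span of 0.39 over the 7 arrays, while the dimmer one spanned 4.09 and was lowest on the array labelled WT day 3 replicate 1. On both probes the sham array and KO replicate 2 were below the other 4 arrays once that array was set aside.

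The probes are shown because the reading for Ptges depends on which is used. The first is given whole and is coding sequence, at chr2:30748214-30748273 of mm9 on the minus strand. Of the second, at chr2:30744995-30745054 on the same strand, the first 30 bases are given.
Ptges probe at base 364: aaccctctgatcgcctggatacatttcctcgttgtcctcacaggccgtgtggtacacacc
Ptges probe at base 3583: atgataaaggactaaacctctgaacctgta
Their starts are 3219 bases apart both in the mRNA and in the genome, so no intron lies between them in that transcript. In a limma fit of all 39401 probes, KO minus WT was 0.03 ± 0.19 (SE) on the probe at base 3583 and 1.14 ± 1.03 on the probe at base 364. Without the array labelled WT day 3 replicate 1 the probe at base 364 gave a KO minus WT difference of -0.01 ± 0.46. Against sham it then gave 1.34 ± 0.59 for KO (limma, unadjusted p = 0.0721, adjusted p = 0.804) and 1.35 ± 0.62 for WT (unadjusted p = 0.0827, adjusted p = 0.78). The cause of the disagreement was not tested.

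**Figure D4:**
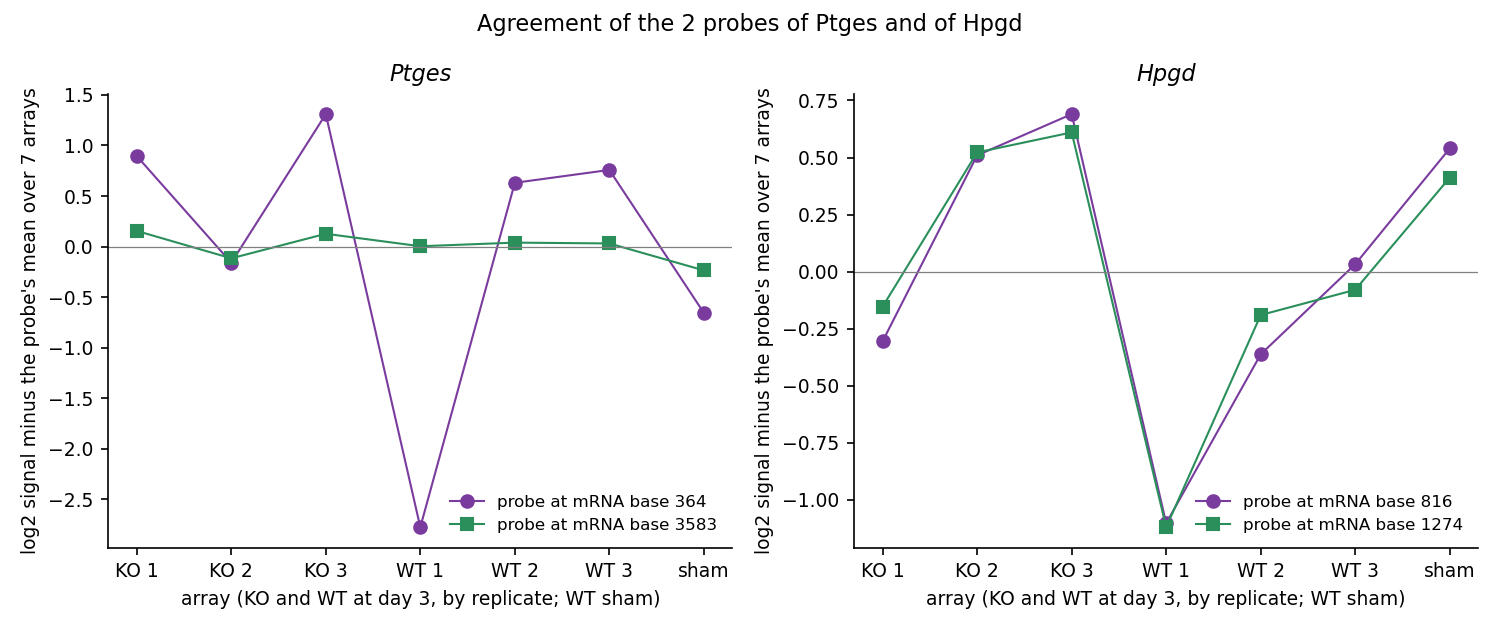
Signal of each probe of Ptges and of Hpgd on the 7 arrays, as log2 minus the mean of that probe over the arrays, with lines that only join the points of a probe. The 2 Hpgd probes follow each other, whereas the Ptges probe at base 364 spans 4.09 and the one at base 3583 spans 0.39.

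Ptges2, a prostaglandin E synthase that cells make constitutively, went the other way on the array that stood apart. Its values were 0.05, 0.28 and 0.10 on the KO arrays, 1.01, 0.10 and -0.00 on the WT arrays, and 0.26 on the sham array. Highest by 0.73 was the array labelled WT day 3 replicate 1, and the other 6 arrays lay within 0.28 of each other. The KO minus WT difference was -0.22, with an interval of -1.01 to 0.56, and 0.10 without that array, with an interval of -0.26 to 0.46 (limma, adjusted p = 0.862 and 1.0).

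Ptgds, lipocalin-type prostaglandin D synthase, was not low on the array that stood apart. It stood at 6.06, 5.37 and 6.25 on the KO arrays, at 6.17, 5.96 and 5.98 on the WT arrays, and at 5.67 on the sham array. KO replicate 2 and the sham array were the 2 lowest, and the WT values lay within the KO range. Ptgds averaged 5.90 ± 0.47 in KO samples and 6.04 ± 0.12 in WT samples (SD, n = 3 each), a difference of -0.14 with an interval of -0.84 to 0.56 (limma, adjusted p = 0.876). It was -0.07 without the array labelled WT day 3 replicate 1, with an interval of -0.85 to 0.70. The summed signal of 10 leptomeningeal fibroblast markers was 89.1, 51.5 and 117 on the KO arrays, 9.1, 74.7 and 100 on the WT arrays, and 46.7 on the sham array. That sum too was low on KO replicate 2 and sham, but it was lowest on the array labelled WT day 3 replicate 1, where Ptgds was high. Of the 10 markers 7 were lowest on that array and 1 was highest. The sum of 8 oligodendrocyte markers was 151, 167 and 66.3 on the KO arrays, 118, 91.7 and 99.6 on the WT arrays, and 155 on the sham array, and it was lowest on KO replicate 3, where Ptgds was highest. The part of either cell type in the Ptgds values was not tested.

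Hpgds, the hematopoietic prostaglandin D synthase, stood at -1.13, -1.53 and -0.69 on the KO arrays, at -3.52, -1.17 and -1.01 on the WT arrays, and at -0.84 on the sham array. The array labelled WT day 3 replicate 1 was 3.96-fold below the lowest of the others, and the sham array was second highest. The KO minus WT difference was 0.78, with an interval of -1.03 to 2.59 (limma, adjusted p = 0.862), and -0.03 without that array, with an interval of -0.76 to 0.70. Its probe is coding sequence, at chr6:65073550-65073609 of mm9 on the minus strand, and is shown whole because no second probe reads this gene.
Hpgds probe: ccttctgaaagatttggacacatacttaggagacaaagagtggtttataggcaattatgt

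Mast cells are another known source of Hpgds. The 4 measured mast cell markers summed to 0.716 to 0.939 on the KO arrays, 0.884 to 1.19 on the WT arrays and 0.778 on the sham array, and none of them was lowest on the array labelled WT day 3 replicate 1. Most of that sum was Kit, a receptor that other brain cells also make. The mast cell protease genes Cpa3 and Mcpt4 were well above background on only 4 of the 7 arrays each. Homeostatic microglia markers, 8 in number, summed to 102, 115 and 111 on the KO arrays, 56.9, 108 and 95.6 on the WT arrays, and 111 on the sham array, with 6 of them lowest on the array labelled WT day 3 replicate 1 and the other 2, P2ry12 and Siglech, highest there. Hpgds was low where the phagocyte markers and most of these were low, and their part in its values was not tested.

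Ptgis, prostacyclin synthase, a cytochrome P450 known from vessel walls, was second in spread after Ptgs2 over the 6 arrays. It stood at 0.88, -0.46 and 0.72 on the KO arrays, at -1.54, 0.55 and 0.69 on the WT arrays, and at -0.28 on the sham array. After the array labelled WT day 3 replicate 1, KO replicate 2 and the sham array were the lowest, and the 4 other arrays lay together. The KO minus WT difference was 0.48, with an interval of -1.30 to 2.27 (limma, adjusted p = 0.862), and -0.24 without that array, with an interval of -1.41 to 0.93. The 7 endothelial markers summed to 148, 68.5 and 155 on the KO arrays, 19.9, 119 and 129 on the WT arrays, and 51.9 on the sham array. The endothelial sum was thus also lowest on the array labelled WT day 3 replicate 1, then on sham and KO replicate 2, and so was that of the fibroblast markers. The 6 pericyte and smooth muscle markers summed to 20.3, 23.1 and 26.5 on KO, 6.5, 26.8 and 25.9 on WT, and 21.8 on sham. After the array labelled WT day 3 replicate 1, that sum was lowest on KO replicate 1, where Ptgis was highest. The part of these cell types in the Ptgis values was not tested.

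Tbxas1, thromboxane A synthase, known from platelets and macrophages, was nearly level on 6 arrays. It stood at 1.54, 1.36 and 1.60 on the KO arrays, at -2.29, 1.56 and 1.19 on the WT arrays, and at 1.44 on the sham array. The array labelled WT day 3 replicate 1 was 11.2-fold below the lowest of the others, while those 6 lay within 0.41 of each other with sham among them. The KO minus WT difference of 1.35, with an interval of -1.24 to 3.94 (limma, adjusted p = 0.862), was 0.13 without that array, with an interval of -0.33 to 0.58. A second Tbxas1 probe, designed on another transcript, was not well above background on any array.

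The markers of the cell types known for Tbxas1 moved on the same array. Phagocyte and monocyte markers had their sums of 133 to 192, 2.24 to 187 and 159 given above for KO, WT and sham. The 5 measured platelet and megakaryocyte markers summed to 38.7, 12.5 and 18.4 on the KO arrays, 0.684, 23.1 and 19.2 on the WT arrays, and 7.82 on the sham array, with 4 of 5 lowest on the array labelled WT day 3 replicate 1. Unlike Tbxas1, the platelet sum differed widely among the other 6 arrays. The part of either cell type was not tested.

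Hpgd, 15-hydroxyprostaglandin dehydrogenase, which takes the first step of prostaglandin inactivation, had the smallest unadjusted p of the 10 genes for KO against WT. It stood at -1.50, -0.83 and -0.74 on the KO arrays, at -2.47, -1.54 and -1.43 on the WT arrays, and at -0.94 on the sham array. KO replicates 2 and 3 and sham were above every WT array, but KO replicate 1 lay between 2 WT arrays, so the groups overlapped. Hpgd averaged -1.03 ± 0.42 in KO samples and -1.82 ± 0.57 in WT samples (SD, n = 3 each). The difference was 0.79 ± 0.38 (SE), with an interval of -0.15 to 1.73 (limma, unadjusted p = 0.0839, adjusted p = 0.862). It was 0.46 ± 0.27 without the array labelled WT day 3 replicate 1, with an interval of -0.25 to 1.18.

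A second Hpgd probe, which starts 458 bases upstream, gave the same picture. It stood at -2.62, -1.81 and -1.63 on the KO arrays, at -3.42, -2.68 and -2.29 on the WT arrays, and at -1.78 on the sham array. Again the array labelled WT day 3 replicate 1 was lowest and KO replicate 1 lay among the WT values. The KO minus WT difference on this probe was 0.78 ± 0.41 in the fit of all probes (limma, adjusted p = 0.936), and 0.46 ± 0.36 without that array. Both lie on the plus strand of chromosome 8, at chr8:58798941-58799000 and chr8:58799399-58799458 of mm9, and their first 30 bases are given to set this agreeing pair beside that of Ptges.
Hpgd probe at base 816: gaattcattttcaagattatgacatctctc
Hpgd probe at base 1274: aagctcctttacaatggaaatatttagtaa

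Ptgr1, prostaglandin reductase 1, which reduces the products of Hpgd and also inactivates leukotriene B4, had the largest fold gap below the other arrays on the one that stood apart, among the brightest probes of the 10 genes. It stood at 0.67, 0.33 and 0.36 on the KO arrays, at -3.62, 0.51 and 0.67 on the WT arrays, and at 0.24 on the sham array. On the array labelled WT day 3 replicate 1 it was 14.6-fold below the lowest of the others, which lay within 0.43 of each other. The KO minus WT difference was 1.27, with an interval of -1.69 to 4.23 (limma, adjusted p = 0.862), and -0.13 without that array, with an interval of -0.57 to 0.30. Its standard deviation was larger than that of 95.3% of all genes over the 7 arrays but than that of 35% over the 6 others, and for Tbxas1 these shares were 93.6% and 26.5%.

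Across the 10 genes, the array labelled WT day 3 replicate 1 was lowest of the 7 for 7, namely Ptgs1, Ptgs2, Hpgds, Ptgis, Tbxas1, Hpgd and Ptgr1, where it was lowest for 34.4% of all genes. It was highest for Ptges2 alone, where it was highest for 43.9% of all genes. It lay more than 1 log2 unit below every other array for 5 (Ptgs2, Hpgds, Ptgis, Tbxas1 and Ptgr1), as it did for 13.1% of all genes. The remaining arrays are described in the same way, beside the shares over all genes. With that array set aside, the sham array was below all 5 day 3 arrays for Ptgs1, Ptgs2, Ptges and Ptgr1, 4 of the 10, and for 24.9% of all genes. It was above all 5 for none of the 10, and for 21.8% of all genes. KO replicate 2 was the lowest of the 5 day 3 arrays for 6 of the 10 (37.5% of all genes) and the highest for Ptges2 alone (27.2% of all genes). KO replicate 2 and the sham array were both below the other 4 for Ptgs2, Ptges, Ptgds, Ptgis and Ptgr1, 5 of the 10, and for 27.5% of all genes.

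For KO against WT, 8 of the 10 genes had a higher mean in KO samples, where 46.9% of all genes did. Their median difference was 0.63, against -0.03 over all genes. Without the array labelled WT day 3 replicate 1 the difference was above 0 for 6 of the 10, as for 50.3% of all genes, with a median of 0.06 against 0.00. The widest intervals were those of Ptgr1, Tbxas1 and Ptgs2 with all arrays. Without that array, Ptgs2 and Ptgis kept intervals that reach more than 1 log2 unit below 0, and that of Ptgs2 also reached 2.00 above it.

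For KO against the array titled sham, whose phagocyte marker sum of 159 was within the KO range, 7 of the 10 genes were higher in KO samples, where 50.4% of all genes were. Ptgs2 had the largest difference, 1.43 with an interval of -1.41 to 4.28 (limma, adjusted p = 1.0), and Ptgis came next at 0.66 with an interval of -1.86 to 3.19. The median of the 10 was 0.22, against 0.00 over all genes. The array labelled WT day 3 replicate 1 does not enter these differences but does enter their error, and without it the Ptgs2 interval was -0.71 to 3.57.

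For WT against sham, where the doubt about both titles applies, 5 of the 10 genes were higher in WT day 3 samples, where 54.1% of all genes were, with a median of -0.05 against 0.03. Leaving out the array labelled WT day 3 replicate 1 gave 6 of 10, against 50.7% of all genes, and a median of 0.21 against 0.01. Ptgs2 had the largest positive difference, 0.41 over all arrays and 1.12 without that one, the second with an interval of -1.15 to 3.39 (limma, adjusted p = 0.768). Ptgis gave 0.18 and 0.90, with an interval of -0.67 to 2.47 without that array. Tbxas1 gave -1.29 over all arrays and -0.06 without that one, with an interval of -0.67 to 0.55. Hpgd was -0.88 and then -0.55, with an interval of -1.51 to 0.41. All 3 comparisons share arrays, KO and WT being set against the same single sham array, which has no spread of its own and was taken to vary like the others.

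**Figure D5:**
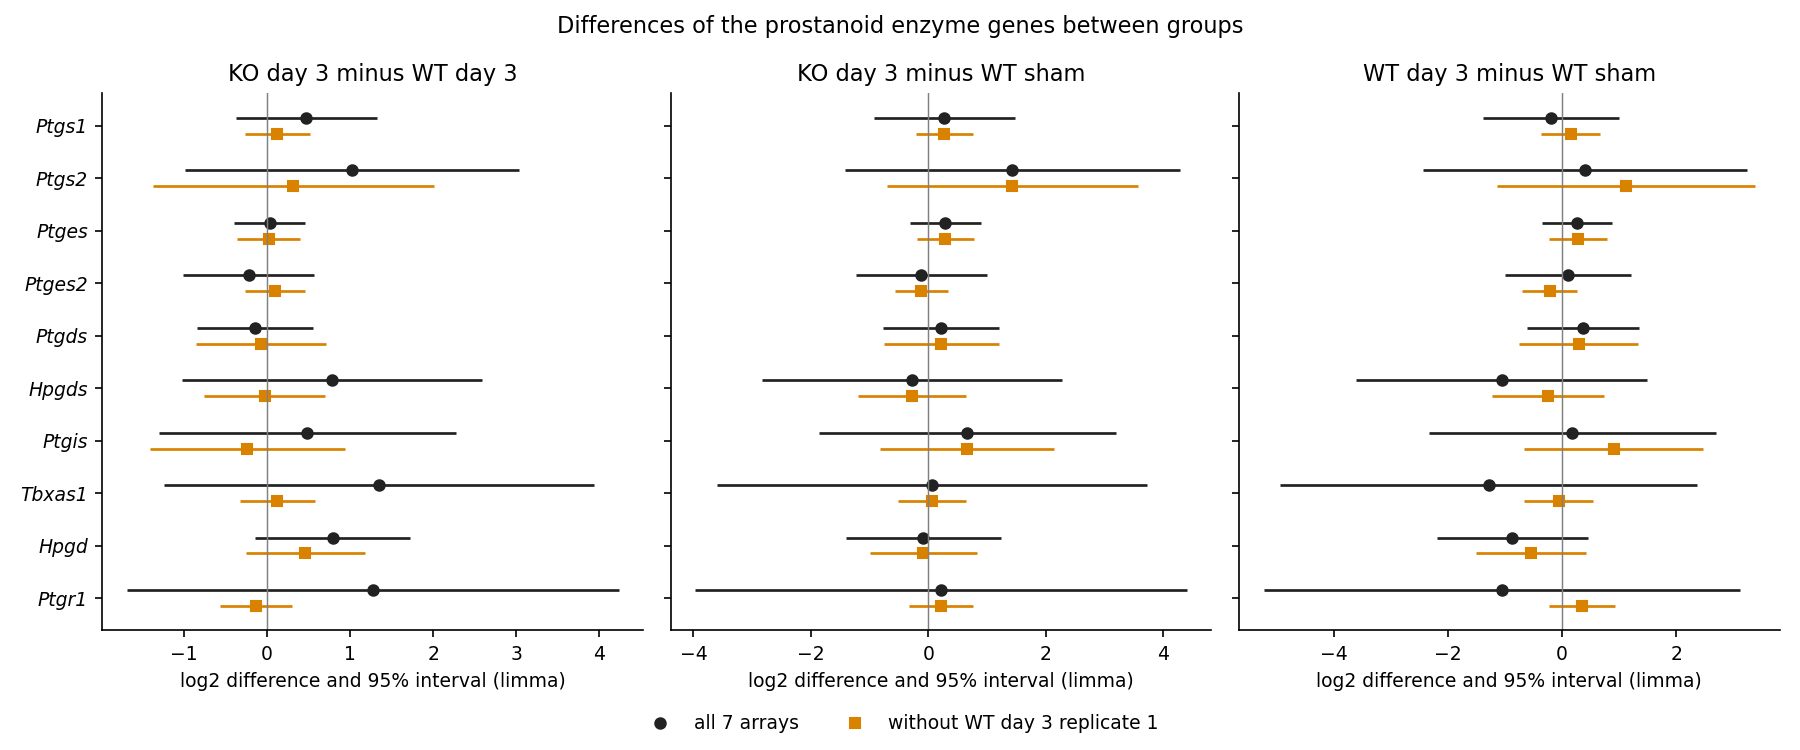
Difference of each gene between groups on the log2 scale with its 95% interval from limma, over all 7 arrays (black circles) and without WT day 3 replicate 1 (orange squares). Every interval includes 0, and those of Tbxas1 and Ptgr1 shrink most when that array is left out.

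Around these 10 genes, 3 lists of other pathway genes were described in the same way. None of their measured members was called by limma in any comparison, with or without the array labelled WT day 3 replicate 1. Over all genes, 46.9% were higher in KO than in WT samples, and 50.3% without that array. Of the phospholipases and other enzymes that supply arachidonic acid, 14 of 15 were measured, and 4 were higher and 10 lower in KO than in WT samples, with a median of -0.12 against -0.03 over all genes. Without that array the counts were 6 and 8 and the median -0.02. Pla2g2f, a secreted phospholipase A2 related to Pla2g2e, stood at -6.41, -6.45 and -6.17 on the KO arrays, at -4.79, -5.93 and -6.06 on the WT arrays, and at -5.90 on the sham array. The KO values of Pla2g2f were all below the WT values, as for 2.65% of all genes, and the difference was -0.75 ± 0.38 (limma, adjusted p = 0.862), and -0.34 ± 0.15 without that array (unadjusted p = 0.076, adjusted p = 1.0). Its probe was well above background on 6 of the 7 arrays.

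Of 20 other prostaglandin enzymes and transporters 19 were measured, and 15 were higher and 4 lower in KO than in WT samples, with a median of 0.16. Without the array labelled WT day 3 replicate 1 there were 7 higher and 12 lower, and the median was -0.05. That array was lowest for 12 of the 19. Cbr2, a carbonyl reductase, was the 1 of 19 with an unadjusted p under 0.05, for KO against sham without that array, where 4.91% of all genes had one. Its values were 2.78, 2.50 and 3.38 on the KO arrays, -1.30, 2.59 and 2.72 on the WT arrays, and 1.85 on the sham array. The Cbr2 difference of KO from sham was 1.03 ± 0.37 (limma, unadjusted p = 0.0411, adjusted p = 0.712). Abcc4, a transporter that exports prostaglandins, stood at 1.91, 1.00 and 2.31 on the KO arrays, at -1.10, 1.86 and 1.76 on the WT arrays, and at 0.79 on the sham array, so that KO replicate 2 and sham were again the lowest of the 6.

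Prostanoid receptors, 8 of 9 measured, had 6 higher and 2 lower in KO than in WT samples, with a median of 0.59. Without the array labelled WT day 3 replicate 1 all 8 were lower, where 50.3% of all genes were higher. The median was then -0.27 against 0.00 over all genes. In that fit the differences of Ptger2, Ptger3, Ptgdr, Ptgfr and Tbxa2r were smaller than their SE. Ptger1, the EP1 receptor of prostaglandin E2, stood at -4.18, -4.00 and -3.98 on the KO arrays, at -3.92, -3.50 and -3.54 on the WT arrays, and at -4.04 on the sham array. Its KO values were all below its WT values, as for 2.65% of all genes, with a difference of -0.40 ± 0.20, and of -0.54 ± 0.13 without that array (limma, unadjusted p = 0.0111, adjusted p = 1.0). Tbxa2r, the thromboxane receptor, stood at -1.23, -1.51 and -0.80 on the KO arrays, at -3.38, -1.02 and -1.07 on the WT arrays, and at -1.98 on the sham array. Setting that array aside, sham was the lowest of the 6 for Tbxa2r, and KO minus sham was 0.80 ± 0.30 (limma, unadjusted p = 0.0491, adjusted p = 0.712). Ptger4, the EP4 receptor of prostaglandin E2, stood at -3.67, -3.37 and -3.49 on the KO arrays, at -6.06, -3.02 and -3.42 on the WT arrays, and at -2.55 on the sham array. Sham was the highest array for Ptger4, and without the array labelled WT day 3 replicate 1 KO minus sham was -0.96 ± 0.24 (limma, unadjusted p = 0.011, adjusted p = 0.712). In the same fit WT minus sham was 0.93 ± 0.32 for Tbxa2r (unadjusted p = 0.0364), -0.67 ± 0.25 for Ptger4 (unadjusted p = 0.048) and 0.52 ± 0.18 for Ptger1 (unadjusted p = 0.0344), each with an adjusted p of 0.768. Receptors with an unadjusted p under 0.05 were then 1 of 8 for KO against WT (1.63% of all genes), 2 of 8 for KO against sham (4.91%) and 3 of 8 for WT against sham (4.51%).

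Likeness of pattern was measured for 5 of the genes as the root-mean-square difference over the 7 arrays after each gene's mean was removed, among 16023 genes with ordinary symbols. These are descriptions over 7 arrays, which the array labelled WT day 3 replicate 1 weighs on heavily. Near to Ptgs2 were Nr1h4 (0.186 log2 units) and Asb4 (0.212). Near to Tbxas1 were Ptpn6 (0.107) and Naip2 (0.111), and near to Hpgds were Abca1 (0.117) and Il18bp (0.141). Psme1 (0.0458), Krtcap2 (0.069) and Mapre1 (0.0716) were nearest to Ptgs1, and Stard4 (0.0803), Aldh8a1 (0.0841) and Reck (0.0857) to Ptgds. The member's own root-mean-square deviation from its mean was 1.05 for Ptgs2, 1.32 for Tbxas1, 0.896 for Hpgds, 0.399 for Ptgs1 and 0.284 for Ptgds. As the named genes were picked as the nearest of 16023, a small distance is what the choice selects for.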

How the data were processed

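Each of 7 Agilent arrays was hybridised with RNA of a single mouse brain sample, on arrays of 60-base probes in 1 colour (Cy3), per the labels. Spot intensities were deposited by the authors from Agilent Feature Extraction (version 11.5.1.1 in the submitters' processing notes); per the file headers the processed intensity is background-subtracted and detrended within each array. The deposited table of the series holds a ratio, found here to be the processed signal divided by the array's 75th percentile (to within 0.0428%), with column medians of 0.0863 to 0.0976, and was used as an alternative. Probe positions are on mm9, per the deposited files.

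The signal was taken to log2 and the array's 75th percentile over spots other than controls was subtracted. Repeat spots of each probe were averaged, 91 to 147 outlier spots per array were left out, and probes well above background on at least 3 arrays were kept. Each gene name in the files was read by its brightest probe, which gave 23288 genes. The test was limma's (version 3.58.1 under R 4.3.3; lmFit, eBayes; all 7 arrays, 3 groups, 4 residual and 1.68 prior degrees of freedom), two-sided, adjusted by Benjamini-Hochberg across all genes, with a threshold of 0.05. Single probes were tested in a fit of all 39401 probes. With 3 arrays against 3, an exact permutation test cannot go below p = 0.1, so none was run. The steps were tested on simulated data. Arrays give no molecule counts, so their number limits the precision.

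The 10 genes, the gene lists and the tests were chosen with earlier results of these data known. Named are the 10 genes, Pla2g2e, the 3 genes nearest in pattern to 5 of them, and genes with the smallest unadjusted p in each pathway list; in the last, only some of the up to 3 per comparison are described. Some genes that the likeness rule gives are not reported here, among them 1 not well above background on every array. Cpa3, Mcpt4, Kit, P2ry12 and Siglech come from the fixed marker lists. Plots were drawn with matplotlib 3.10.9 in Python 3.11.15.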

Additional observations from a re-analysis of the deposited data

How the results depend on the processing

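None of the 10 genes was called by limma under any of the alternatives, and this holds for each comparison. Counts of all genes called moved by more than 1.5 times. For KO against WT, 0 became 2 with array weights, in which the array labelled WT day 3 replicate 1 had a weight of 0.0513. For KO against sham, 3 became 95 with array weights, 1 with quantile normalisation, and 0 with normexp background correction, with the array median, with probes above background on all 7 arrays, and with the replicate block, and 0 to 8 with 1 array left out. For WT against sham, 3 became 146 with array weights, 1 with quantile normalisation and with the array median, 0 with normexp, with probes above background on all arrays and with the replicate block, and 0 to 6 with 1 array left out.

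Directions of single genes turned as follows. For KO minus WT, Ptges was -0.0207 with quantile normalisation, and with array weights Ptges2 was 0.018, Ptgds 0.0949 and Ptgr1 -0.0106. Without WT day 3 replicate 1 and sham, an alternative chosen after seeing the data like the fit of single probes, Ptges2 was 0.0959, Hpgds -0.0283, Ptgis -0.24 and Ptgr1 -0.13. With 1 array left out in turn the ranges were -0.0193 to 0.116 for Ptges, -0.41 to 0.0959 for Ptges2, -0.32 to 0.12 for Ptgds, -0.0283 to 1.23 for Hpgds, -0.24 to 0.90 for Ptgis and -0.13 to 2.02 for Ptgr1. For KO minus sham, Ptgds was -0.19 with quantile normalisation, Hpgd 0.026 with the array median and -0.23 to 0.15 with 1 array left out. With the replicate block Ptgs1 was -0.11, Ptges2 0.15, Tbxas1 -1.14 and Ptgr1 -1.08. For WT minus sham, the block gave Ptgs2 -0.0693 and Ptgis -0.29, and array weights gave Ptgs1 0.0771, Ptges2 -0.18, Tbxas1 0.0152 and Ptgr1 0.27. With 1 array left out the ranges were -0.43 to 0.15 for Ptgs1, -0.10 to 1.12 for Ptgs2, -0.22 to 0.29 for Ptges2, -0.21 to 0.90 for Ptgis and -1.80 to 0.35 for Ptgr1. The direction was kept by 155 of 170 values for KO minus WT, 143 of 150 for KO minus sham and 138 of 150 for WT minus sham. Using the mean of both probes took Ptges to 0.59 for KO minus WT. Values that kept their direction but moved by over 1.5 times were 37 of 170 for KO minus WT, 33 of 150 for KO minus sham and 28 of 150 for WT minus sham, among them Hpgds -1.88, Tbxas1 -2.49 and Ptgr1 -2.35 for WT minus sham with the block.

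An unadjusted limma p under 0.05 among the 10 genes came with 2 alternatives. With the replicate block limma gave Hpgd 0.79 for KO minus WT (unadjusted p = 0.0284, adjusted p = 0.919) and -1.44 for WT minus sham (unadjusted p = 0.0183, adjusted p = 0.992). With array weights, limma gave Ptgs2 1.81 (adjusted p = 0.135), Ptges 0.35 (adjusted p = 0.138) and Ptgis 0.94 (adjusted p = 0.142) for KO minus sham. In the same fit limma gave Ptges 0.27 (adjusted p = 0.166), Ptgis 0.85 (adjusted p = 0.152) and Hpgd -0.59 (adjusted p = 0.18) for WT minus sham. The cause of these shifts was not tested.

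KO and WT replicates of the same number had correlated deviations of -0.38, -0.56 and 0.35 (r over genes) for numbers 1, 2 and 3. Pairs with unlike numbers ran from -0.547 (KO replicate 2 with WT replicate 3) to 0.605 (KO replicate 2 with WT replicate 1). The value for the replicates numbered 3 thus did not stand out, and the pairing was not taken as given by the design. With 1 sham array, the comparisons with sham borrow the spread of the day 3 arrays.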
